A study of Mus musculus with 8 samples.

Results

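The genes described here are 38 genes of the cell division cycle, 17 of the G1-S transition and DNA replication and 21 of G2 and mitosis, chosen by name from a list and measured in mouse liver tumours and non-tumour liver. Each of the 38 symbols matched exactly 1 of the 54838 gene identifiers in the count tables. As a label, "cell cycle genes" fits their textbook functions. The G1-S genes were Mcm2 to Mcm7, Pcna, Rrm1, Rrm2, Tk1, Tyms, Ccne1, Ccne2, E2f1, Cdc6, Cdt1 and Uhrf1. The G2-M genes were Mki67, Top2a, Ccna2, Ccnb1, Ccnb2, Cdk1, Birc5, Aurka, Aurkb, Bub1, Bub1b, Plk1, Foxm1, Cdc20, Cdkn3, Kif11, Kif20a, Nusap1, Tpx2, Ube2c and Cenpf.

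In dividing cells the 2 sets are switched on in sequence. Transcription factors of the E2F family, released from the retinoblastoma protein, turn on genes for origin licensing, nucleotide supply and the replication machinery before S phase. Later, the DREAM subunit LIN54 with B-MYB and FOXM1, and the factor NF-Y, drive the mitotic genes through a promoter element called the cell cycle genes homology region (CHR) and through CCAAT boxes. Adult hepatocytes are mostly quiescent, and mitotic transcripts are therefore scarce in normal liver and are used as markers of proliferation in liver tumours. Several replication proteins, among them PCNA and the MCM helicase, also act in DNA repair or are kept by cells that do not divide.

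RNA from liver of wild-type male C57BL/6J mice was sequenced in bulk in 8 libraries, 4 labelled tumour and 4 labelled non-tumour. Every mouse had been injected intraperitoneally with diethylnitrosamine (DEN), a liver carcinogen, on day 15 and fed a high-fat diet (HFD) with SW, which the labels do not expand. In the labels 30 weeks stands for the diet as well as for the time since injection, which leaves the mice's age unclear. The non-tumour samples thus came from liver exposed to the same carcinogen and diet, and untreated liver was not among the samples. The labels do not say which samples came from the same mouse, so p-values measure only the spread between these samples, which may be technical.

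The libraries held 15446690 to 21977052 counted reads. Levels are given in CPM, reads relative to the scaled library total. A gene with no read could still stand at up to 3 reads, or 0.137 CPM in the library with most reads and 0.194 CPM in that with fewest, a limit that covers counting error only. Tumour 2 and tumour 4 were near-identical, and so were non-tumour 2, 3 and 4. The chi-square per degree of freedom between their gene counts was 1.58 to 3.28 in those 4 pairs and 71.7 to 165 in the other 24. Counts of near-identical libraries were summed and counted as 1 sample, since the labels do not say whether they are repeat libraries of 1 piece of tissue, which left 3 tumour profiles (1, 2/4 and 3) and 2 non-tumour profiles (1 and 2/3/4). The liver tumour markers Afp, Gpc3 and H19 together stood at 1431 and 930 CPM in tumour 1 and tumour 2/4, at 2.78 CPM in the library labelled tumour 3, and at 90.0 and 19.4 CPM in non-tumour 1 and 2/3/4. The library labelled tumour 3 thus lacked the marker levels of the other tumours, and the fold changes printed for single genes are given with and without it. Hepatocyte transcripts dominated every profile, with Alb at 73070 CPM in non-tumour 1, the lowest, and 138600 CPM in tumour 1, the highest.

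The comparison of tumour with non-tumour liver asks whether the tumours carried more transcripts of dividing cells. The G2-M genes were highest in tumour 1 and lowest in the library labelled tumour 3, with the non-tumour profiles between them, and this held for 21 of 21 genes at each end. Across all 13650 genes tested, tumour 1 was the highest of the 5 profiles for 20.04% and tumour 3 the lowest for 30.8%. Tumour 1 was above both non-tumour profiles for 34.02% of them and tumour 3 below both for 37.6%, and tumour 1 was above tumour 2/4 for 49.8%, against 21 of 21 G2-M genes in each case. Summed over the 21 genes, the level was 86.3 CPM in tumour 1, 45.5 CPM in tumour 2/4 and 11.7 CPM in tumour 3, against 26.4 CPM in non-tumour 1 and 37.4 CPM in non-tumour 2/3/4. The sum in tumour 1 was 7.39 times that in tumour 3, and the spread among the tumours was wider than the distance between the groups. In bulk tissue a smaller share of dividing cells and less of these RNAs per cell cannot be told apart.

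The G1-S genes moved far less. Their sum was 104 CPM in tumour 1, 102 CPM in tumour 2/4, 80.4 CPM in tumour 3, and the non-tumour profiles 1 and 2/3/4 had 83.3 and 105 CPM. Tk1 alone gave 21.9 CPM of the sum in non-tumour 2/3/4, against 5.51 to 9.98 CPM in the other profiles. That sum, and its ratio below, thus rest in part on 1 gene. Gene by gene, tumour 1 was above both non-tumour profiles for 10 of 17, tumour 2/4 for 11, and tumour 3 was below both for 10. The shares of all genes tested were 34.02%, 32.2% and 37.6%. Tumour 1 was the highest profile for 6 of the 17 genes, tumour 2/4 for 6 and a non-tumour profile for 5, while tumour 3 was the lowest for 10. Tumour 2/4 was the highest for 12.2% of all genes tested. Between the highest and the lowest profile a G1-S gene differed by a median factor of 2.02 and a G2-M gene by a median of 6.13, counted over the 16 and 19 genes with more than 3 reads in every profile. The ratio of the G2-M sum to the G1-S sum was 0.829 in tumour 1, 0.447 in tumour 2/4 and 0.145 in tumour 3, and 0.316 and 0.355 in non-tumour 1 and 2/3/4. Tumour 1 and tumour 2/4 had nearly the same G1-S sum but differed 1.90-fold in the G2-M sum.

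**Figure D1:**
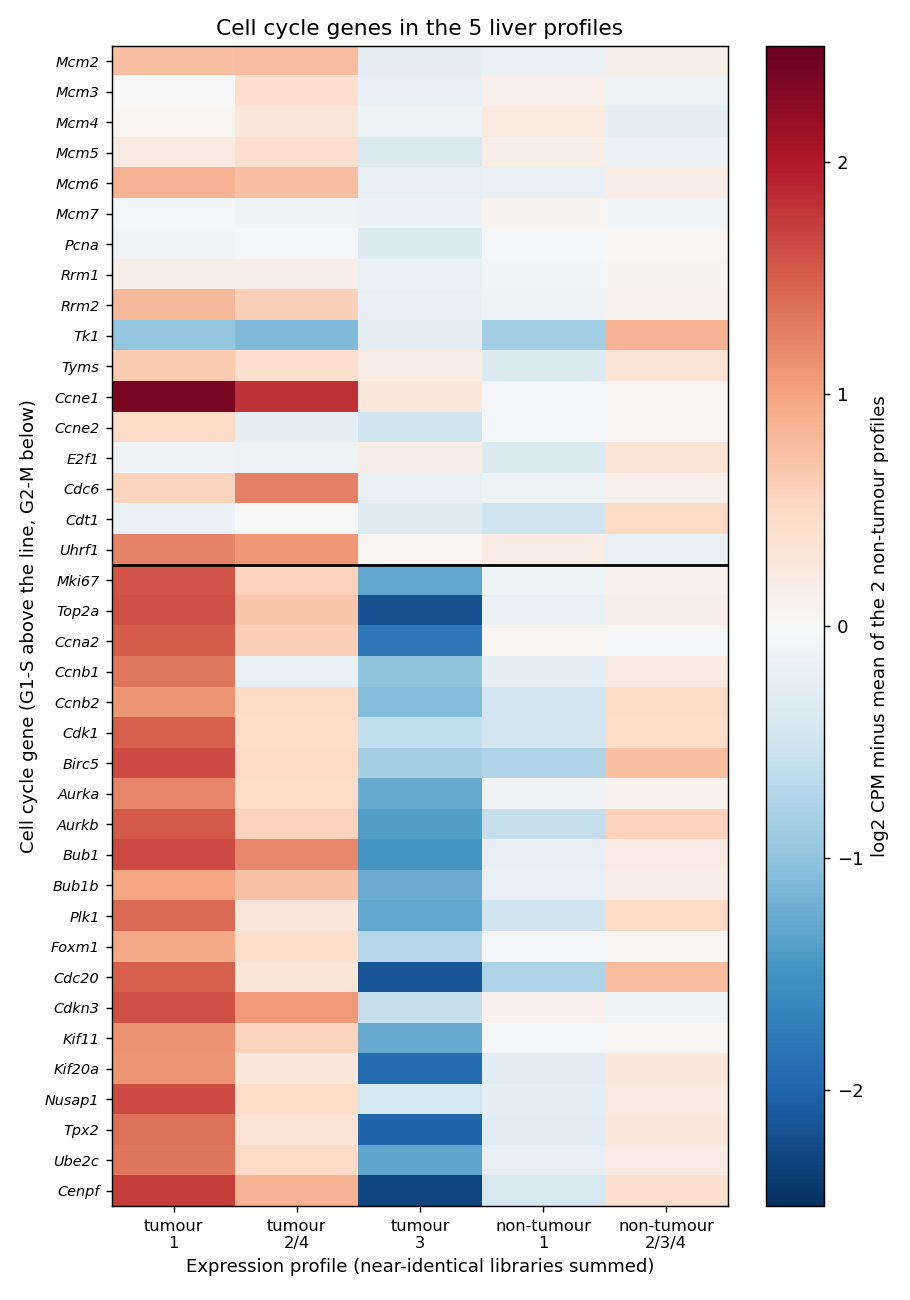
Each row is 1 gene and each column 1 of the 5 profiles, with colour for log2 CPM (prior count 2) relative to the average of both non-tumour profiles. Below the line all 21 G2-M genes are highest in tumour 1 and lowest in tumour 3, while above it the G1-S genes differ among themselves, with Ccne1 high in tumours 1 and 2/4 and Tk1 high in non-tumour 2/3/4.

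No cell cycle gene passed the test between the groups. With p-values adjusted over all genes by Benjamini-Hochberg, the quasi-likelihood test of edgeR called 0 of the 37 genes tested, where 0.0% of all 13650 genes were called. The gene left out by the filter on low counts was Cdc6. The adjusted p of the 37 was between 0.995 and 0.999. At an unadjusted p under 0.05 there was 1 of them, Ccne1, against 2.03% of all genes on the higher side (1.27% on the lower side, with 0 of the 37), and DESeq2 also called 0 of the 37 by its adjusted p. The median log2 fold change (tumour over non-tumour) was 0.54 for the G2-M genes and 0.09 for the 16 G1-S genes tested, beside 0.01 for all genes. All 21 G2-M fold changes were positive, where 52.2% of all genes were. Most of them turned without tumour 1, when 5 of the 20 then tested were positive and the median was -0.11. Without tumour 3 the median was 0.94 for the G2-M genes and 0.23 for the 17 G1-S genes then tested. On the higher side 7 of 21 G2-M genes (Mki67, Top2a, Ccna2, Bub1, Cdkn3, Kif11 and Cenpf) and 5 of 17 G1-S genes (Mcm2, Mcm6, Rrm2, Ccne1 and Uhrf1) then had an unadjusted p under 0.05, against 6.26% of all genes. Still 0 passed after adjustment, with a smallest adjusted p by edgeR of 0.378 for G2-M genes and 0.173 for G1-S genes, while 0.0357% of all genes were called. With the 8 libraries as separate replicates, where 0.435% of all genes were called, edgeR called 0 of the 36 genes tested (smallest adjusted p = 0.121). At an unadjusted p under 0.05 that fit had Ccne1, Uhrf1, Rrm2 and Cdkn3 on the higher side and Tk1 on the lower side, against 10.1% and 7.9% of all genes.

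**Figure D2:**
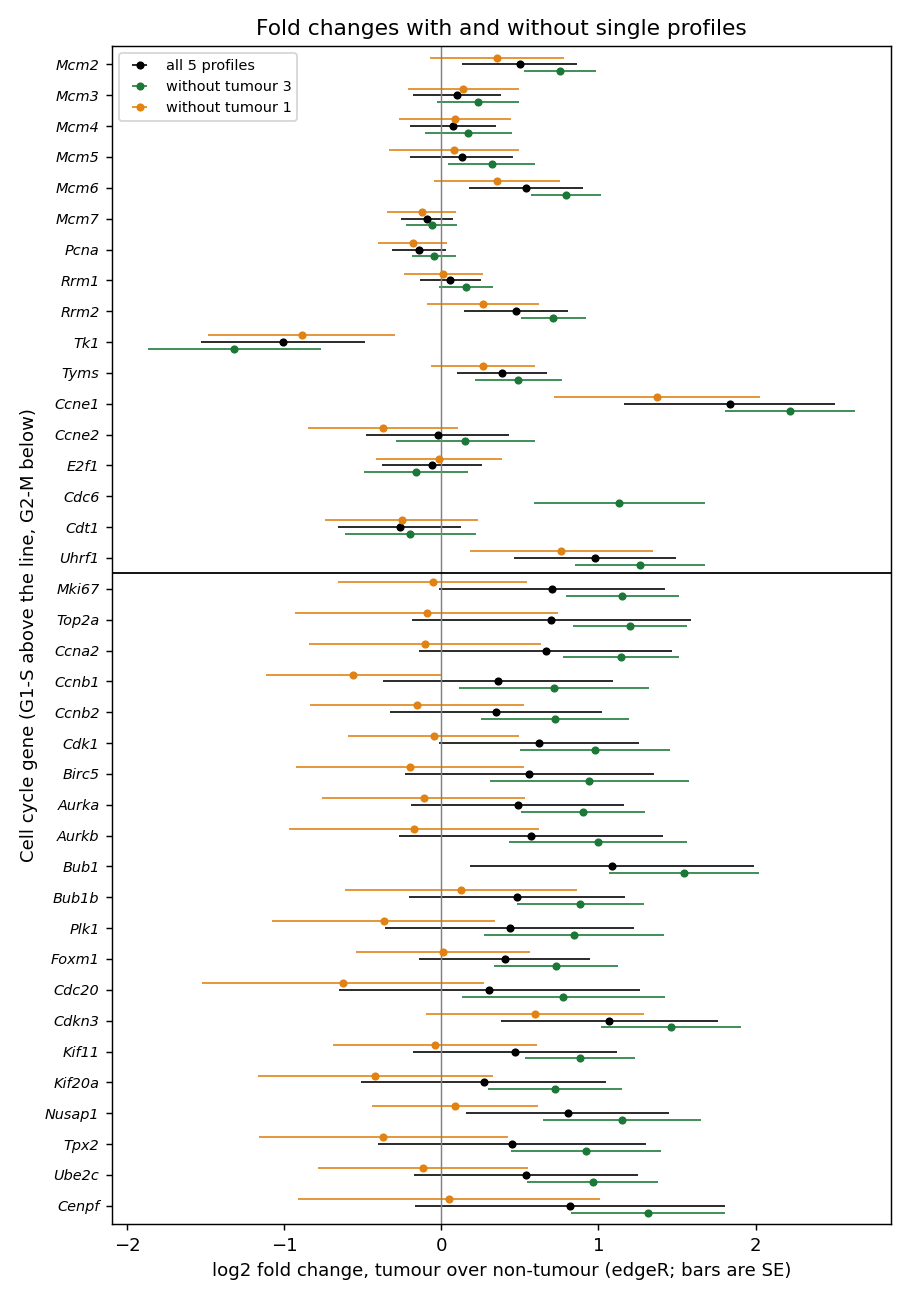
Points are log2 fold changes of tumour over non-tumour from edgeR and bars their standard errors, for all 5 profiles, without tumour 3 and without tumour 1, with no point where a gene did not pass the filter. Without tumour 1 the G2-M genes shift to the left of 0 or near it, except Cdkn3 at 0.60, and without tumour 3 they shift to the right, while most G1-S genes stay in place.

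Promoter sequences are shown because E2F and CHR-binding factors act through known elements. The 2 sets were chosen by name for functions that these factors govern, so frequent elements were likely whatever the levels showed. A link between elements and levels was not tested. RefSeq (GRCm38.p6) windows from 250 bases before to 50 bases after the transcription start were at hand for 31 of the 38 genes and for 27025 genes in all. An E2F element, spelled TTTCGCGC or TTTGGCGC and searched on both strands, stood in 6 of 15 G1-S promoters (40.0%), in 1 of 16 G2-M promoters (6.25%, Cdk1) and in 0.929% of all genes' promoters. The G1-S genes with it were Mcm3, Mcm5, Mcm6, Mcm7, Cdt1 and Uhrf1. A gene was counted when any of its windows held the element, and Mcm7 and Uhrf1 have 2 windows each, of which 1 holds it. A CHR element, TTTGAA or TTCGAA on either strand, together with a CCAAT box on either strand stood in 13 of 16 G2-M promoters (81.2%), in 2 of 15 G1-S promoters (13.3%, Mcm2 and Mcm7) and in 8.61% of all. CHR elements alone were in 21.7% and CCAAT boxes alone in 41.1% of all promoters, so single matches of these short strings are common. Matches can overlap, within a motif or between motifs, as an E2F element and a CCAAT box do in the Mcm7 window. Birc5, Nusap1 and Ccnb1 were the G2-M genes with a window but without the pair. A match is a string in this window and not a site shown to be bound.

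The 2 G1-S genes and 2 G2-M genes with the highest level per length among those with their set's elements are printed 5′ to 3′ on the strand of the gene. In the Mcm promoters capitals mark E2F elements. In the Cdc20 and Ccnb2 promoters they mark CHR elements and CCAAT boxes.
Mcm7 (chr5:138171834-138172133, minus strand): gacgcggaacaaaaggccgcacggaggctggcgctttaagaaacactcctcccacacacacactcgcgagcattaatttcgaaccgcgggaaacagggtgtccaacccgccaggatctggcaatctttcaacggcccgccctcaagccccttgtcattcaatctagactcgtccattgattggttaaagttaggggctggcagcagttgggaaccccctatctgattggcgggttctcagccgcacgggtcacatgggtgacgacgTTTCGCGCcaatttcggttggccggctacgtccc
Mcm6 (chr1:128359656-128359955, minus strand): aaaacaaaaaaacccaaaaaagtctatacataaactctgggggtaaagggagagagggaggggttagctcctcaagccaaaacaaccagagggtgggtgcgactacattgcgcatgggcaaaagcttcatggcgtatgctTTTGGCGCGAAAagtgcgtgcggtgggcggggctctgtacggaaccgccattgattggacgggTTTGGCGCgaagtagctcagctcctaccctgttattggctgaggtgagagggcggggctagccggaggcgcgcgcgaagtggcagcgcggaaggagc
Cdc20 (chr4:118437294-118437593, minus strand): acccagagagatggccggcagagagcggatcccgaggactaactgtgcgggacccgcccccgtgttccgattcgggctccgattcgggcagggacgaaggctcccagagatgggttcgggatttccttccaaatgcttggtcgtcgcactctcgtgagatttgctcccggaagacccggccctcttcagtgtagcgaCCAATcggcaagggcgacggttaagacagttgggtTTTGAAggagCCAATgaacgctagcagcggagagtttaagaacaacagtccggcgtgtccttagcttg
Ccnb2 (chr9:70421505-70421804, minus strand): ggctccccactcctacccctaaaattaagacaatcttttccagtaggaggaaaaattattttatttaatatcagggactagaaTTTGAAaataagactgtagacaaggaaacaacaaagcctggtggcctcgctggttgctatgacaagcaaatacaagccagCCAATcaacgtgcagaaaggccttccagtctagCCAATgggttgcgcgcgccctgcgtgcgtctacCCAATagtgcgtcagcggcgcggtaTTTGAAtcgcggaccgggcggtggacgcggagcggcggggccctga
The Mcm6 window holds 3 E2F elements, the first 2 of which overlap and begin 110 and 106 bases before the start (-110 and -106), and the third at -47. The Mcm7 window printed, the one of 2 that has the element, holds 1, which begins 16 bases after the start. The Cdc20 window has CCAAT boxes at -53 and -8 with a CHR element at -18 between them. The Ccnb2 window has 3 CCAAT boxes at -87, -54 and -21, with CHR elements at -167 and at 4 bases after the start.

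**Figure D3:**
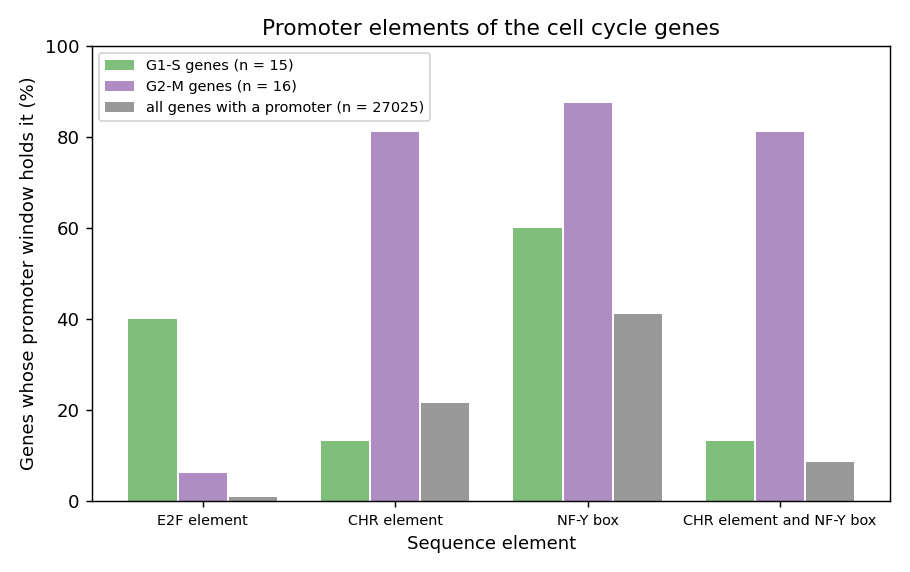
Bars give the percent of genes whose promoter window of 300 bases holds each element, for 15 G1-S genes, 16 G2-M genes and 27025 genes in all. The E2F element is more frequent among G1-S promoters (40.0%) and the pair of CHR element and NF-Y (CCAAT) box among G2-M promoters (81.2%).

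Of the G1-S genes, the MCM helicase subunits differed in size of change. Mcm2 to Mcm7 form the ring that unwinds DNA at the replication fork. Mcm2 (ENSMUSG00000002870, chromosome 6, 88883474 to 88898780, GRCm38) reached 6.51 and 6.54 CPM in tumour 1 and tumour 2/4, at 3.22 CPM in tumour 3 and at 3.47 and 4.22 CPM in non-tumour 1 and 2/3/4. Mcm6 (chromosome 1, 128331590 to 128359664), whose promoter is printed above, had the same pattern at 8.91, 8.23 and 4.23 CPM in tumours 1, 2/4 and 3 and 4.28 and 5.54 CPM in non-tumour 1 and 2/3/4. For both, tumours 1 and 2/4 were above every non-tumour profile and tumour 3 was lowest, though nearly equal to non-tumour 1 for Mcm6. Their log2 fold changes were 0.50 (SE 0.37) and 0.54 (SE 0.36), and neither passed (edgeR adjusted p = 0.995). Without tumour 3 they were 0.76 (SE 0.23) and 0.80 (SE 0.22), again with neither passing (adjusted p = 0.380 and 0.341). Mcm5 (chromosome 8, 75109569 to 75128439) had 3.62, 4.11 and 2.40 CPM in tumours 1, 2/4 and 3 and 3.42 and 2.81 CPM in non-tumour 1 and 2/3/4. Mcm7, the most abundant subunit per length at 5.39 ± 0.82 TPM (SD, n = 5 profiles; reads per base of exon, scaled to 1 total in every profile), varied least of all 38 genes. It ran from 10.9 CPM in tumour 3 to 12.7 CPM in non-tumour 1, a factor of 1.17. The RNAs of these subunits thus did not keep a fixed ratio. Between the highest and the lowest profile Mcm2 and Mcm6 differed about 2-fold (2.03 and 2.11) and Mcm7 did not. Protein was not measured. Within Mcm7 lie 3 microRNA genes on the same strand.

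Pcna (chromosome 2, 132249162 to 132253314), the sliding clamp of DNA polymerases, was the most abundant of the 38 genes per length at 14.8 ± 2.93 TPM (SD, n = 5). It stood at 17.5, 17.9 and 14.4 CPM in tumours 1, 2/4 and 3 and at 17.8 and 18.9 CPM in non-tumour 1 and 2/3/4, a log2 fold change of -0.14 (SE 0.17), or -0.05 (SE 0.14) without tumour 3. The groups overlapped, and the highest and lowest profile differed by a factor of 1.32. Processed pseudogenes of Pcna, Tyms, Ccnb1 and Ccnb2 are annotated, and multi-mapping reads were left out of the counts, which makes the levels of these 4 genes uncertain.

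Genes of nucleotide supply differed in direction, and for each of them the tumour and non-tumour profiles overlapped. Rrm2 (chromosome 12, 24708241 to 24714146), the S-phase subunit of ribonucleotide reductase, stood at 9.90 and 8.52 CPM in tumour 1 and tumour 2/4, at 4.86 CPM in tumour 3 and at 5.23 and 5.96 CPM in non-tumour 1 and 2/3/4. Rrm1, the large subunit, which is not restricted to S phase, stayed between 8.21 and 10.3 CPM. Tyms (chromosome 5, 30058202 to 30073617), thymidylate synthase, stood at 9.22, 7.81 and 6.63 CPM in tumours 1, 2/4 and 3 and at 4.58 and 7.43 CPM in non-tumour 1 and 2/3/4. Tk1 (chromosome 11, 117815526 to 117826092), the cytosolic thymidine kinase of the salvage pathway, ran the other way. It was lowest in tumour 2/4 and tumour 1, at 5.51 and 5.97 CPM, and stood at 9.98 CPM in tumour 3 and 6.44 CPM in non-tumour 1. Non-tumour 2/3/4 stood apart at 21.9 CPM, 3.40 times non-tumour 1, with 20.7 to 23.0 CPM in its 3 libraries. Its log2 fold change was -1.01 (SE 0.52, edgeR adjusted p = 0.995), the lowest of the 38 genes, and it was -1.32 (SE 0.55) without tumour 3 and 0.14 without non-tumour 2/3/4. Tk1 and Pcna were thus highest in non-tumour 2/3/4, which ranked below tumours 1 and 2/4 in Mki67 and Top2a.

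**Figure D4:**
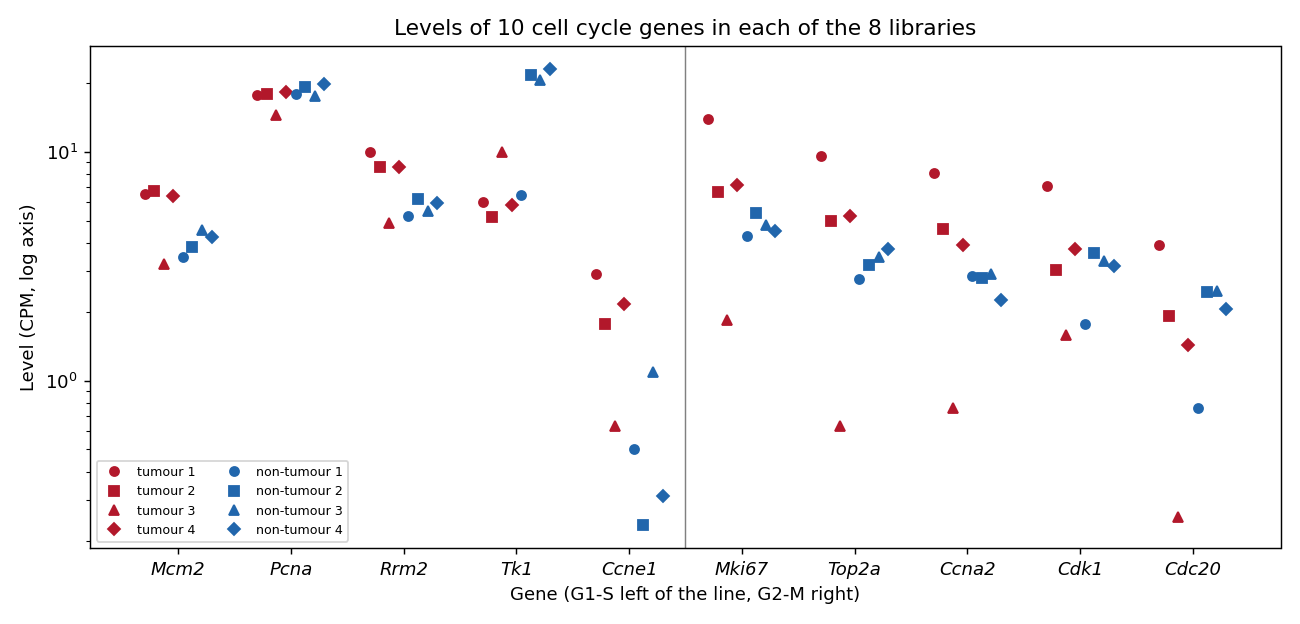
Points give the level in CPM on a log axis for 10 genes in each of the 8 libraries, red for tumour and blue for non-tumour, with the symbol for the library number. Near-identical libraries lie close together, except for genes with few reads such as Ccne1, and Tk1 stands at 20.7 to 23.0 CPM in non-tumour 2, 3 and 4.

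Of the cyclins and regulators that open S phase, Ccne1 had the largest difference. Ccne1 (ENSMUSG00000002068, chromosome 7, 38097984 to 38107534) encodes cyclin E1, the partner of CDK2 at the G1-S boundary. It stood at 2.89 CPM in tumour 1, 1.96 CPM in tumour 2/4 and 0.632 CPM in tumour 3, against 0.503 and 0.525 CPM in non-tumour 1 and 2/3/4. The averages were 1.83 ± 1.14 CPM (SD, n = 3) and 0.514 ± 0.0156 CPM (SD, n = 2). It was the only gene of the 38 whose tumour profiles were all on 1 side of the non-tumour profiles, a pattern that 9.46% of all genes had on the higher side. By single library the groups overlapped, since non-tumour 3 stood at 1.09 CPM with 16 reads. The log2 fold change was 1.84 (SE 0.67, unadjusted p = 0.0319, edgeR adjusted p = 0.995), and without tumour 3 it was 2.22 (SE 0.41, adjusted p = 0.173). Ccne2 (chromosome 4, 11191351 to 11204779), the second cyclin E, showed none of this, at 1.31, 0.784 and 0.632 CPM in tumours 1, 2/4 and 3 and 0.905 and 0.945 CPM in non-tumour 1 and 2/3/4. Its log2 fold change was -0.02 (SE 0.45), and 0.15 (SE 0.44) without tumour 3.

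E2f1 (chromosome 2, 154559407 to 154569892), an activator of the G1-S genes and itself one of them, lay in every tumour profile between non-tumour 1 and 2/3/4. It was highest in non-tumour 2/3/4 at 4.18 CPM and in tumour 3 at 3.73 CPM, and stood at 3.07, 3.01 and 2.57 CPM in tumour 1, tumour 2/4 and non-tumour 1. Cdt1, an origin licensing factor, had a log2 fold change of -0.26 (SE 0.39), or -0.20 (SE 0.42) without tumour 3, and was also highest in non-tumour 2/3/4, at 3.05 CPM against 1.51 to 2.13 CPM in the other profiles. Cdc6 (chromosome 11, 98907801 to 98923940), which loads the MCM ring together with Cdt1, was the least abundant of the 38 per length at 0.135 ± 0.0957 TPM (SD, n = 5). It had 8, 26 and 3 reads in tumours 1, 2/4 and 3 and 4 and 12 in non-tumour 1 and 2/3/4, too few to compare. Uhrf1 (chromosome 17, 56303321 to 56323486), which guides maintenance DNA methylation at replicating DNA, stood at 1.54 and 1.37 CPM in tumour 1 and tumour 2/4, at 0.632 CPM in tumour 3 and at 0.704 and 0.525 CPM in non-tumour 1 and 2/3/4 (log2 fold change 0.98, SE 0.51, edgeR adjusted p = 0.995). Without tumour 3 its log2 fold change was 1.26 (SE 0.41, adjusted p = 0.431). E2f1, Cdt1 and Tk1 were higher in non-tumour 2/3/4 than in non-tumour 1, as were 12 of the 17 G1-S genes and 19 of the 21 G2-M genes, where 51.8% of all genes were.

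Among the G2-M genes, Mki67 and Top2a mark mitotic chromosomes. Mki67 (ENSMUSG00000031004, chromosome 7, 135689784 to 135716361), the source of the Ki-67 antigen that coats mitotic chromosomes, stood at 13.7, 6.88 and 1.83 CPM in tumours 1, 2/4 and 3. It stood at 4.28 and 4.94 CPM in non-tumour 1 and 2/3/4. The near-identical tumours 2 and 4 gave 6.67 and 7.15 CPM by themselves. Tumour 1 was 7.51 times tumour 3. Top2a (chromosome 11, 98992943 to 99024189), the topoisomerase that untangles replicated DNA, stood at 9.50, 5.07 and 0.632 CPM in tumours 1, 2/4 and 3 and at 2.77 and 3.49 CPM in non-tumour 1 and 2/3/4. In each gene the tumours lay on both sides of the non-tumour profiles. The log2 fold changes were 0.70 (SE 0.72) and 0.70 (SE 0.89), each smaller than its standard error. Without tumour 3 they were 1.15 (SE 0.36) and 1.20 (SE 0.36), over 3 times the standard error, and neither passed (edgeR adjusted p = 0.392 and 0.378).

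The cyclins and kinase that drive mitotic entry were likewise highest in tumour 1 and lowest in tumour 3. Ccna2 (chromosome 3, 36564865 to 36572150), cyclin A2, stood at 8.05, 4.24 and 0.758 CPM in tumours 1, 2/4 and 3 and at 2.87 and 2.67 CPM in non-tumour 1 and 2/3/4. Cdk1 (chromosome 10, 69335146 to 69352938), the mitotic kinase, stood at 7.05, 3.38 and 1.58 CPM in tumours 1, 2/4 and 3. In non-tumour 1 and 2/3/4 it stood at 1.76 and 3.40 CPM, so that tumour 3 was close to non-tumour 1 and tumour 2/4 to non-tumour 2/3/4. Ccnb1 (chromosome 13, 100778650 to 100786570), cyclin B1, stood at 0.735 CPM in tumour 2/4, near non-tumour 1 at 0.704 CPM and below non-tumour 2/3/4 at 0.987 CPM. It was at 2.17 CPM in tumour 1, 2.95 times tumour 2/4 and the largest such ratio of the 21 genes. Ccnb2, cyclin B2, was at 2.53, 1.62 and 0.505 CPM in tumours 1, 2/4 and 3, and its log2 fold change was 0.35 (SE 0.67), or 0.72 (SE 0.47) without tumour 3. Foxm1 (chromosome 6, 128362967 to 128376146), a transcription factor of this gene set, varied least of the G2-M genes with more than 3 reads in every profile, by a factor of 3.42. It stood at 1.94, 1.35 and 0.568 CPM in tumours 1, 2/4 and 3 and at 0.956 and 1.01 CPM in non-tumour 1 and 2/3/4. Cdkn3, a phosphatase that acts on cyclin-dependent kinases, had the second highest log2 fold change of the set at 1.07 (SE 0.69, edgeR adjusted p = 0.995), and 1.46 (SE 0.44, adjusted p = 0.379) without tumour 3. It stood at 1.67, 1.13 and 0.316 CPM in tumours 1, 2/4 and 3 and at 0.553 and 0.462 CPM in non-tumour 1 and 2/3/4.

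Mitotic kinases and checkpoint genes were at 0.0632 to 3.48 CPM. Aurka (chromosome 2, 172356190 to 172370535), the spindle pole kinase, stood at 3.48, 2.03 and 0.568 CPM in tumours 1, 2/4 and 3 and at 1.36 and 1.55 CPM in non-tumour 1 and 2/3/4. Plk1 (chromosome 7, 122159439 to 122169873), polo-like kinase 1, stood at 2.44, 1.08 and 0.316 CPM in tumours 1, 2/4 and 3 and at 0.604 and 1.26 CPM in non-tumour 1 and 2/3/4. Birc5 (chromosome 11, 117849251 to 117855743), survivin, a subunit of the chromosomal passenger complex with Aurora B, stood at 3.44, 1.54 and 0.568 CPM in tumours 1, 2/4 and 3 and at 0.604 and 1.85 CPM in non-tumour 1 and 2/3/4. For Plk1 and Birc5, tumour 2/4 lay below non-tumour 2/3/4, and tumour 3 lay close to or below non-tumour 1. Bub1 (chromosome 2, 127801122 to 127831865), a spindle checkpoint kinase, had the highest log2 fold change of the G2-M genes at 1.09 (SE 0.91, edgeR adjusted p = 0.995), and 1.54 (SE 0.48, adjusted p = 0.386) without tumour 3. It stood at 1.09 and 0.784 CPM in tumour 1 and tumour 2/4 and at 0.251 and 0.357 CPM in non-tumour 1 and 2/3/4, and had 1 read in tumour 3. Its partner Bub1b (BubR1) had a log2 fold change of 0.48 (SE 0.69), and Aurkb of 0.57 (SE 0.84). Without tumour 3 these were 0.88 (SE 0.41) and 1.00 (SE 0.57).

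The activators of the anaphase-promoting complex differed between the non-tumour profiles as well. Cdc20 (chromosome 4, 118432901 to 118437352), the most abundant G2-M gene per length at 2.00 ± 1.59 TPM (SD, n = 5), stood at 3.89, 1.66 and 0.253 CPM in tumours 1, 2/4 and 3. It stood at 0.754 and 2.33 CPM in non-tumour 1 and 2/3/4, a factor of 3.09, the largest such factor among the 21 genes. Its log2 fold change of 0.31 (SE 0.96) was among the 2 lowest of the set, and it was 0.78 (SE 0.64) without tumour 3, -0.63 without tumour 1 and -0.26 without non-tumour 1. Kif20a, a kinesin of the central spindle, had the lowest at 0.27 (SE 0.78), or 0.72 (SE 0.42) without tumour 3, with 3.62, 2.01 and 0.379 CPM in tumours 1, 2/4 and 3 and 1.36 and 1.97 CPM in non-tumour 1 and 2/3/4. Ube2c, the ubiquitin-conjugating enzyme of the same complex as Cdc20, stood at 3.93, 2.18 and 0.568 CPM in tumours 1, 2/4 and 3.

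The spindle genes Kif11, Nusap1, Tpx2 and Cenpf were highest in tumour 1, then in tumour 2/4, then in the non-tumour profiles, and lowest in tumour 3. Kif11, the motor that pushes spindle poles apart, stood at 3.89, 2.60 and 0.695 CPM in tumours 1, 2/4 and 3 and at 1.71 and 1.79 CPM in non-tumour 1 and 2/3/4. Tpx2, an activator of Aurora A on the spindle, stood at 3.26, 1.57 and 0.253 CPM in tumours 1, 2/4 and 3. Nusap1, which bundles spindle microtubules, was at 0.821 CPM in tumour 3, not far below the 0.956 CPM of non-tumour 1. Cenpf, a kinetochore protein gene, was the least abundant per length of the set at 0.188 ± 0.160 TPM (SD, n = 5) and had 2 reads in tumour 3. Bub1 and Foxm1 were next lowest, at 0.252 ± 0.215 and 0.425 ± 0.212 TPM, and after Cdc20 the highest were Ccnb2 and Ccna2 at 1.94 ± 1.15 and 1.93 ± 1.45 TPM, 3 levels that do not differ beyond their spread. Among G1-S genes, Mcm7 and Rrm2 (5.20 ± 2.13 TPM) followed Pcna, and Ccne2 (0.539 ± 0.168 TPM) and Uhrf1 (0.473 ± 0.272 TPM) stood just above Cdc6. In tumour 3 the 21 G2-M genes held 185 reads together out of a library total of 17285128, which is within the range of the other libraries.

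The order of tumour 1, then tumour 2/4, then both non-tumour profiles, then tumour 3 held in full for 15 of the 21 G2-M genes and 2 of the 17 G1-S genes, against 6.10% of all genes tested. Tumour 2/4 was above both non-tumour profiles for the same 15 G2-M genes, against 32.2% of all genes, and the other 6 were Ccnb1, Ccnb2, Cdk1, Birc5, Plk1 and Cdc20. Of these, Ccnb2 (1.62 CPM in each) and Cdk1 (3.38 and 3.40 CPM) were nearly equal in tumour 2/4 and non-tumour 2/3/4. The mean of the 21 genes in log2 CPM relative to the non-tumour mean was 1.40 in tumour 1, 0.53 in tumour 2/4 and -1.34 in tumour 3. For the G1-S genes it was 0.40, 0.38 and -0.15. The 2 non-tumour profiles lie at equal distances from 0 by construction, at 0.27 below and above for G2-M genes (-0.27 and 0.27) and 0.12 for G1-S genes (-0.12 and 0.12). The G2-M mean minus the G1-S mean was 1.00 in tumour 1, 0.16 in tumour 2/4 and -1.19 in tumour 3. Non-tumour 2/3/4 stood at the same 0.16 as tumour 2/4. Tumours 2 and 4 by themselves had differences of 0.16 and 0.13.

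**Figure D5:**
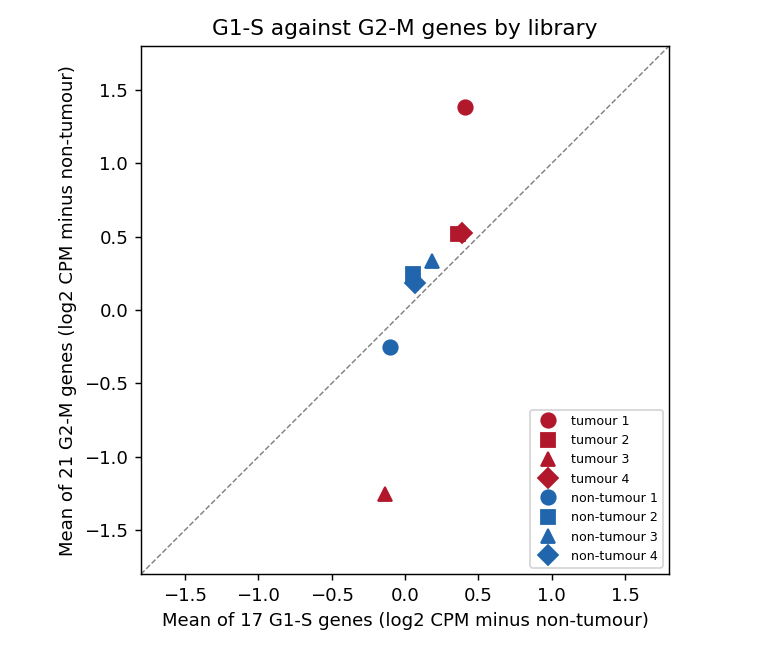
The horizontal axis is the mean of the 17 G1-S genes and the vertical axis that of the 21 G2-M genes, each in log2 CPM relative to the non-tumour mean, with 1 point per library and equal values on the dashed line. Tumour 1 lies above the line and tumour 3 below it, and the other 6 libraries lie near it.

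Other genes of the same pathway, from a list that held none of the 38, were tested as well. Of 49 other mitotic genes tested, tumour 1 was highest for 38 and tumour 3 lowest for 33, and 0 passed the test in either direction. Their median log2 fold change was 0.43. Of 38 other replication genes tested, tumour 1 was highest for 20 and tumour 3 lowest for 16, 0 passed and the median was 0.16. The lowest unadjusted p among the mitotic genes was that of Gtse1, a microtubule-binding protein of G2, at 2.17, 1.25 and 1.39 CPM in tumours 1, 2/4 and 3 and 0.604 and 0.693 CPM in non-tumour 1 and 2/3/4 (unadjusted p = 0.0227, edgeR adjusted p = 0.995). Cenpa, the centromeric histone, and Fbxo5 (Emi1), an inhibitor of the anaphase-promoting complex, followed, with log2 fold changes of 0.86 (SE 0.39) and 1.00 (SE 0.47). Cenpa stood at 11.7, 5.73 and 5.43 CPM in tumours 1, 2/4 and 3 and at 4.17 and 4.22 CPM in non-tumour 1 and 2/3/4. Fbxo5 stood at 1.18, 0.759 and 1.01 CPM in the tumours and at 0.352 and 0.588 CPM in non-tumour tissue. These 3 genes, unlike the 21, were higher in tumour 3 than in both non-tumour profiles. Being picked for a low p between the groups favours such genes, so this contrast with the 21 follows in part from the choice. Among the replication genes, Pole2 and Tipin had log2 fold changes of 1.28 (SE 0.66) and 0.25 (SE 0.21), and neither passed. Pole2, a subunit of DNA polymerase epsilon, had 0.543 and 0.637 CPM in tumours 1 and 2/4, 3 reads in tumour 3 and 0.201 and 0.189 CPM in non-tumour 1 and 2/3/4. Tipin, of the fork protection complex, had 5.65, 6.32 and 5.68 CPM in tumours 1, 2/4 and 3 and 4.88 and 4.998 CPM in non-tumour 1 and 2/3/4. Without tumour 3 the log2 fold changes of Gtse1, Cenpa, Fbxo5, Pole2 and Tipin were 1.37, 1.04, 0.96, 1.601 and 0.28, with adjusted p of 0.386 to 0.745.

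Regulators of the G1 phase were also tested, 22 of them, with 0 passing in either direction and a median log2 fold change of 0.01. Ccnd1, cyclin D1, stood at 35.8, 34.0 and 17.4 CPM in tumours 1, 2/4 and 3 and at 26.6 and 15.1 CPM in non-tumour 1 and 2/3/4. Mybl2, the B-MYB factor that acts with the CHR-binding complex on mitotic promoters, had the lowest unadjusted p. It stood at 0.633 and 0.588 CPM in tumour 1 and tumour 2/4 and at 0.147 CPM in non-tumour 2/3/4, with 3 reads in tumour 3 and 1 in non-tumour 1. Rbl2 (p130), a repressor subunit of the complex in quiescent cells, was lower in all tumour profiles, at 24.1, 27.4 and 18.1 CPM in tumours 1, 2/4 and 3 against 31.6 and 32.8 CPM, and Cdk6 was higher, at 24.1, 29.8 and 19.96 CPM against 19.5 and 18.5 CPM. Such separation of the groups was seen for 9.46% of all genes on the higher side and 8.89% on the lower side. Of the 22 regulators, 3 were separated on the higher side and 2 on the lower side. Myc did not follow the division genes, at 1.94, 2.82 and 7.39 CPM in tumours 1, 2/4 and 3 and 2.11 and 6.74 CPM in non-tumour 1 and 2/3/4.

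Of the 7 inhibitors of cyclin-dependent kinases tested, 4 were highest in tumour 1, as the G2-M genes were, and 0 passed the test. Cdkn2b (p15) stood at 16.7 and 7.79 CPM in tumour 1 and tumour 2/4, at 1.01 and 0.693 CPM in non-tumour 1 and 2/3/4, and had 2 reads in tumour 3 (log2 fold change 3.31, SE 1.45, edgeR adjusted p = 0.995; 3.89, SE 0.48, adjusted p = 0.111 without tumour 3). Cdkn2a, which encodes p16 and p19ARF, stood at 3.57 CPM in tumour 1, 0.539 CPM in tumour 2/4 and 0.402 and 0.294 CPM in non-tumour tissue, and had 1 read in tumour 3. Cdkn1a (p21), induced by p53, stood at 22.2, 15.8 and 6.32 CPM in tumours 1, 2/4 and 3 and at 11.3 and 5.08 CPM in non-tumour 1 and 2/3/4.

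Markers of other cell types moved with the G2-M genes in part, and their part in the result was not tested. Cholangiocyte markers, 5 of 7 highest in tumour 1, summed to 403 and 192 CPM in tumour 1 and tumour 2/4, 22.6 CPM in tumour 3 and 35.0 and 36.6 CPM in non-tumour 1 and 2/3/4. Most of that was Spp1 and Tspan8, while Krt19 stood at 2.58 CPM in tumour 1 and 0.245 to 0.402 CPM elsewhere, lowest in tumour 2/4. Epcam and Sox9 were highest in tumour 2/4, at 0.661 and 5.51 CPM, and Sox9 stood at 4.07 CPM in tumour 1 and 4.12 CPM in non-tumour 1. Recruited macrophage markers summed to 53.2, 52.4 and 16.0 CPM in tumours 1, 2/4 and 3 and 25.7 and 24.4 CPM in non-tumour 1 and 2/3/4, mostly Cd9. Of these 6 markers only 1, Cd9, was highest in tumour 1. Ccr2, Ly6c2, Trem2, Gpnmb and Itgax were highest in tumour 2/4 and did not share the order. Ccr2, for example, stood at 1.402 CPM in tumour 1, 3.795 CPM in tumour 2/4 and 1.509 CPM in non-tumour 1. B cell markers summed to 17.4, 18.2 and 10.4 CPM in the tumours and 9.05 and 7.54 CPM in non-tumour tissue. Kupffer cell markers did not share the order, at 199, 180 and 143 CPM in the tumours and 525 and 157 CPM in non-tumour tissue. T cell markers ran in the opposite order among the tumours, at 3.93, 4.95 and 5.75 CPM. Precursors of granulocytes, which divide in bone marrow, summed to 0.251 to 1.94 CPM with the highest value in tumour 1. Erythroid precursor markers summed to 69.7 to 178 CPM and were lowest in tumour 2/4 and tumour 1, and their gene Hemgn was at 0 in every profile. Neutrophil markers summed to 0.505 to 2.94 CPM, with Ly6g at 0 throughout. Stellate cell markers summed to 151 to 191 CPM and endothelial markers to 112 to 263 CPM, with the highest sums in tumour 3 and non-tumour 1. Most of the stellate sum was Dcn, at 103 to 151 CPM. Col1a1, Col3a1, Acta2 and Lum, 4 of the 7 stellate markers, were highest in tumour 1, and Dcn, Lrat and Des were not. Col3a1 stood at 36.6, 23.9 and 15.0 CPM in tumours 1, 2/4 and 3 and at 17.2 and 18.9 CPM in non-tumour tissue.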

How the data were processed

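Bulk RNA was measured in 8 liver libraries. The authors deposited raw read counts per gene, 1 table per library. Per the file headers, reads were counted with featureCounts 1.6.2 over exons of Ensembl release 95 (GRCm38), with strand setting 2, and multi-mapping reads were not counted. STAR 2.5.0 and Subread 1.6.2 are named in the submitters' processing notes. Trimming is not given in the sources used here. Symbols came from a reference table that matched 54723 of 54838 identifiers.

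Groups were taken from the labels. Near-identical libraries were summed, defined by a chi-square under 10 per degree of freedom between their counts at genes holding at least 20 reads in both together. Tests used edgeR 4.0.16 in R 4.3.3 (glmQLFit, glmQLFTest) on TMM-scaled counts. Genes had to pass filterByExpr at its settings of 10 (count) and 15 (total). P-values were adjusted over all genes by Benjamini-Hochberg, with a threshold of 0.05. A standard error is a log2 fold change over the square root of its F. CPM uses TMM-scaled library sizes. TPM uses the deposited exon lengths, and levels are compared between genes on that scale only. Set means used log2 CPM with a prior count of 2. The script was tested on simulated data.

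The genes and lists were chosen with earlier results of these data known. Full values were given for a fixed panel of 20 genes, the 2 highest and 2 lowest fold changes of each set, and, of the other lists, Ccnd1, Cdkn1a, Myc and the 3 lowest p-values. For 1 gene that this rule names, the result is not reported here. Further genes of the 38 were described by role. Anything else named was chosen after its values were seen. Marker lists held 3 to 7 genes, and the hepatocyte list lost 1 of 6 whose symbol did not match. Alternatives were 8 separate libraries with and without a replicate block, 1 library per near-identical set, other scalings (DESeq2 size factors, library size, upper quartile), other filters, DESeq2 1.42.0, other prior counts, and leaving out each profile.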

Additional observations from a re-analysis of the deposited data

How the results depend on the processing

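The number of genes called over all genes, 0 with 5 profiles (451 at an unadjusted p under 0.05), was 56 with all 8 libraries as separate replicates, 427 with no expression filter, 2 with DESeq2 and 0 to 5 when each profile was left out in turn (5 without tumour 3), and the cause was not tested. With no filter, 2 of the 38 genes were called, Tk1 (log2 fold change -1.05, edgeR adjusted p = 0.0102) and Ccne1 (1.81, adjusted p = 0.0492), and 2 of the other cell cycle genes, Cdkn2a (1.99) and Cdkn2b (3.29). Under every other alternative run 0 of them were called. The median of the G2-M genes was 0.32 to 0.59 under other scalings, filters, DESeq2 and library counting, and -0.11 to 0.94 when profiles were left out in turn, below 0 without tumour 1. That of the G1-S genes was 0.051 to 0.26 and, left out in turn, -0.0042 to 0.34, below 0 without tumour 2/4. The difference of G2-M and G1-S means kept its sign in each profile under every prior count, scaling and member filter run (0.95 to 1.02 in tumour 1, -1.30 to -1.02 in tumour 3).

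A direction turned for 23 of the 37 genes tested under at least 1 alternative, 15 of them G2-M genes without tumour 1 and 7 of them G1-S genes without non-tumour 2/3/4. With profiles left out in turn, log2 fold changes ran from -0.11 to 0.23 for Mcm3, -0.16 to 0.33 for Mcm4, -0.048 to 0.32 for Mcm5, -0.022 to 0.16 for Rrm1, -1.63 to 0.14 for Tk1, -0.37 to 0.15 for Ccne2, -0.36 to 0.34 for E2f1, -0.67 to 0.34 for Cdt1, -0.055 to 1.15 for Mki67, -0.093 to 1.20 for Top2a, -0.10 to 1.15 for Ccna2 and -0.56 to 0.72 for Ccnb1. They ran from -0.16 to 0.96 for Ccnb2, -0.047 to 1.19 for Cdk1, -0.20 to 1.61 for Birc5, -0.11 to 0.90 for Aurka, -0.17 to 1.36 for Aurkb, -0.37 to 1.09 for Plk1, -0.63 to 1.36 for Cdc20, -0.041 to 0.88 for Kif11, -0.42 to 0.72 for Kif20a, -0.37 to 0.92 for Tpx2, -0.11 to 0.96 for Ube2c and -0.91 to 0.92 for Myc. Of the 38 genes, Mcm3 (-0.046) and Ccne2 (0.058) also turned with 1 library kept of each near-identical set, Ccne2 (0.0051) with library size alone, and Cdc20 (-0.0030) with 8 separate libraries.

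Tumour and non-tumour libraries share numbers 1 to 4 in the labels. Same-numbered libraries had deviations from their group means that correlated at 0.34, -0.12, 0.26 and -0.10, so the numbers were not taken as pairs. With the replicate number as a block over 8 libraries, edgeR called 0 of 12880 genes (2264 at an unadjusted p under 0.05), and Cdc20 turned to -0.21. The level of genes with few reads, such as Cdc6, Bub1 and Cenpf, is limited by depth.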
